A study of Mus musculus with 5 samples.

Results

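The regions described here are the binding sites of the forkhead transcription factor Foxf1 that lay at the ends of protein-coding genes in differentiating mouse cells. They were chosen from the authors' deposited Foxf1 peak list by position. The summit of a peak, its point of strongest signal, had to lie within 1 kb of either end of a protein-coding gene of the RefSeq table for GRCm38.p6, on chromosomes 1 to 19 or X. The peak also had to share no base pair with any peak of the Hand1 list from the same series. The rule was met by 1418 of 5638 Foxf1 peaks on these chromosomes (25.2%), in 1393 separate intervals, while 21 further peaks at gene ends were left out for their overlap with Hand1. Because presence and position of peaks chose the members, the shares of genes reported below are descriptions, with 95% intervals that cover counting error only, and no test was run on them.

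Both peak lists came from E14, a mouse embryonic stem cell line, by chromatin immunoprecipitation and sequencing with an antibody to the HA tag, a short peptide fused to the factor. The Foxf1 group is E14 carrying an inducible Foxf1-HA overexpression construct, taken at the stage abbreviated CP: embryoid bodies for 48 h, re-aggregation for 40 h with VEGF, Activin A and BMP4, then 32 h as a monolayer with VEGF, basic FGF and FGF10. The Hand1 group is E14 with HA knocked in at Hand1, taken after the re-aggregation step (MES), and served here only to leave peaks out. The series has 2 Foxf1-HA libraries, 1 Hand1-HA library and 1 input library (chromatin without precipitation) for each stage, but 1 Foxf1 list, so no value has a replicate error. Since Foxf1 was overexpressed, its sites are those of the induced, tagged protein. Anti-HA precipitation in untagged cells and the histone mark samples were not analysed here, and no RNA level stands beside the peaks.

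Foxf1 belongs to the forkhead (Fox) family, whose winged-helix domain reads a core element with the letters TGTTTAC or TGTTTAT, on either strand. In embryos Foxf1 is known for its role in lateral plate and splanchnic mesoderm and its derivatives, such as lung and gut mesenchyme and vessels, where it acts downstream of Hedgehog signalling. Promoters of broadly expressed, housekeeping genes are mostly CpG islands, stretches rich in CG dinucleotides, whereas promoters of tissue-restricted genes are often CpG-poor. Divergent promoters drive a pair of genes on opposite strands from neighbouring starts, an arrangement frequent among housekeeping genes.

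The letters under the summits at 6 gene starts are shown first, as examples of the minority of promoter sites that hold the forkhead letters TGTTTAC (7.59% of promoter windows with a summit). They are the 6 genes of highest fold enrichment whose RefSeq promoter window held TGTTTAC within 25 bp of the summit, chosen after the values were seen. Each window reaches from 250 bases before to 50 bases after a RefSeq transcription start. Each sequence is written 5′ to 3′ in the direction of the gene, as RefSeq GRCm38.p6 has it, and the capitals mark TGTTTAC or its reverse complement GTAAACA.
Grk6: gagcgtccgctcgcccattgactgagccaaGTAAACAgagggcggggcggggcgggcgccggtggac
Otud1: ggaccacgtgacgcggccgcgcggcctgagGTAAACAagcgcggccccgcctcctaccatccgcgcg
Frat1: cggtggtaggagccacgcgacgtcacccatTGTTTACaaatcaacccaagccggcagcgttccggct
Ramac: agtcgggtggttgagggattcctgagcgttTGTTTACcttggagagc
Rxrb: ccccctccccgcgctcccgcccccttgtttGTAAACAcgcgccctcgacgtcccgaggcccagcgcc
Sox12: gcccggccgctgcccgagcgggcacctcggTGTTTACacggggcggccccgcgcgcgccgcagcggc
In order, they lie at chr13:55445252-55445318 (plus strand), chr2:19657673-19657739 (plus), chr19:41829942-41830008 (plus), chr7:81762956-81763002 (plus), chr17:34032261-34032327 (plus) and chr2:152398117-152398183 (minus). The Ramac sequence ends with its window. Their genes encode a kinase of G protein-coupled receptors (Grk6), a deubiquitinase (Otud1), an inhibitor of the kinase GSK3 (Frat1), the activating subunit of the mRNA cap methyltransferase (Ramac), a retinoid X receptor (Rxrb) and a Sox-family transcription factor (Sox12). The authors' fold enrichment at the summit was 16.5 for Grk6, 12.3 for Otud1, 12.0 for Frat1, 11.8 for Ramac, 11 for Rxrb and 10.7 for Sox12. The middle of the motif lay 11, 4, 12, 2, 1 and 12 bp from these summits. By this choice the motif lies near the summit in each. Around it the Grk6, Otud1, Rxrb and Sox12 sequences consist mostly of C and G.

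The whole promoter window is printed for Grk6 (chr13:55445079-55445378, plus strand), as the strongest of these 6, and for Sh3glb1 (chr3:144720286-144720585, minus strand), as the strongest promoter site whose window lacks TGTTTAC.
Grk6: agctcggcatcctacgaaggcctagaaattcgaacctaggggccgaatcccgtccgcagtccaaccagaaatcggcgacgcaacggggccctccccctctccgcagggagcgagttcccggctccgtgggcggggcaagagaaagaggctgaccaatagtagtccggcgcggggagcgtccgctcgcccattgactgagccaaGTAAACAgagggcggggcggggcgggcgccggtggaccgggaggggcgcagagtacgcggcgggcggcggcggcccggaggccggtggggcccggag
Sh3glb1: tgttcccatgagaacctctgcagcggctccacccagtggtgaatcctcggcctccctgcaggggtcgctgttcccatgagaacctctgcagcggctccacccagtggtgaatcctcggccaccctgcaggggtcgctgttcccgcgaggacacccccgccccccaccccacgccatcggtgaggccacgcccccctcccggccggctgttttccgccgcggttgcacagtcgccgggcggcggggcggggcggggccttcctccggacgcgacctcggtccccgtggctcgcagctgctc
The Grk6 window holds 37 CpG dinucleotides and the Sh3glb1 window 29. Sh3glb1 encodes endophilin B1, a membrane-bending protein that takes part in autophagy, and its summit had a fold enrichment of 31.1. Both windows are CpG-rich, and only that of Grk6 holds a match, which is a description of letters in this window and not of the site that the protein touched.

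In median fold enrichment the gene-end sites resembled the other Foxf1 sites. Their fold enrichment had a median of 7.60 (quartiles 6.53 to 9.60, range 2.82 to 61.3), against 7.61 for 2042 peaks inside protein-coding genes, 7.73 for 1621 peaks between genes 1 to 50 kb from an end and 7.73 for 385 peaks over 50 kb away. Upper quartiles of fold in these classes were lower than at gene ends, at 8.96, 9.14 and 8.82 in the same order. The median −log10 q-value at gene ends was 17.8, against 14.8, 14.9 and 14.4. The gene-end peaks were wider, with a median of 630.5 bp against 491, 483 and 459 bp. The fragments inferred at the summit numbered 34 at the median against 27, 28 and 26, and the control level inferred there, the number of fragments the peak caller set as background, was 3.65 against 2.68, 2.68 and 2.43. More fragments and a higher control level thus moved together at gene ends, and the part of the control level in the choice of peaks was not tested. Of the members, 25 (1.76%) had a high control level, meaning 5 or more times the lowest one that was inferred. A fold of at least 10 was reached by 300 members (21.2%) and of at least 20 by 16. At the 1 kb limit, the last members inside were peaks 998 bp from an end of Mapk3 (fold 13.5) and of Plpp3 (9.96), and the first peaks outside lay 1004 bp from Scgb1a1 (7.49) and 1005 bp from Hdac11 (9.21).

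The 10 members with the highest fold mix general cell machinery with signalling and transcription genes. The strongest, at chr1:171344228-171344800, lay 469 bp upstream of the start of Pfdn2, which encodes a subunit of prefoldin, a chaperone for unfolded actin and tubulin. Its summit held 187 fragments over a control level of 2.07, a fold of 61.3. The Sh3glb1 peak came next (31.1), followed by a peak 526 bp inside Exd1 at its divergent pair with Chp1 (chr2:119546772-119547374, fold 30.8). The Pfdn2 peak thus stands far above all other members. Tfap4, a basic helix-loop-helix transcription factor (chr16:4559603-4561017), and the zinc finger gene Zfp975 (chr7:42693189-42693811) both had a fold of 28.3. Gins4, a subunit of the GINS complex of the replicative helicase, had 27.5 (chr8:23237180-23238335), and Myrf, a membrane-bound transcription factor known from myelination, had 25.0 (chr19:10240580-10241039). Gdf15, a stress-induced member of the TGF-beta family, had 23.7 at its other end (chr8:70629633-70630514). At Gdf15 213 fragments stood over a control level of 8.03, above the limit for a high control level. Rapgef1, an exchange factor for the GTPase Rap1 (chr2:29619362-29620325), and Dnajc11, a mitochondrial DnaJ protein (chr4:151933414-151933969), had 23.4 each.

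The members touched 1512 of the 21631 protein-coding genes (6.99%, exact 95% interval 6.65 to 7.34). A single gene lay within 1 kb for 1262 members, 2 genes for 154 and 3 genes for 2. More than 1 member was found at 64 genes. Among the listed genes these included Dnajc11, with a second peak of fold 10.3 at chr4:151980877-151981996, the complex I gene Ndufa13 (8.38 and 4.62), Ndufa4l2, whose pair of summits (6.80 and 6.03) share the interval chr10:127508142-127509475, and Zfp319, whose 2 summits (10.0 and 4.85) share chr8:95330927-95332937.

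Most gene-end sites lay at the start of the gene. Strand, and with it the start, was known for 17274 genes and for the nearest gene of 1112 members, of which 915 (82.3%, 79.9 to 84.5) lay nearest to a start and 197 to the other end. The remaining 306 members were nearest to a gene of unknown strand. Put per gene, a member lay within 1 kb of the start of 983 genes (5.69%) and within 1 kb of the other end of 259 genes (1.50%). Only 15 of the 197 sites at other ends (7.61%) had a listed start of any gene within 1 kb, though genes of unknown strand have no listed start.

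**Figure D1:**
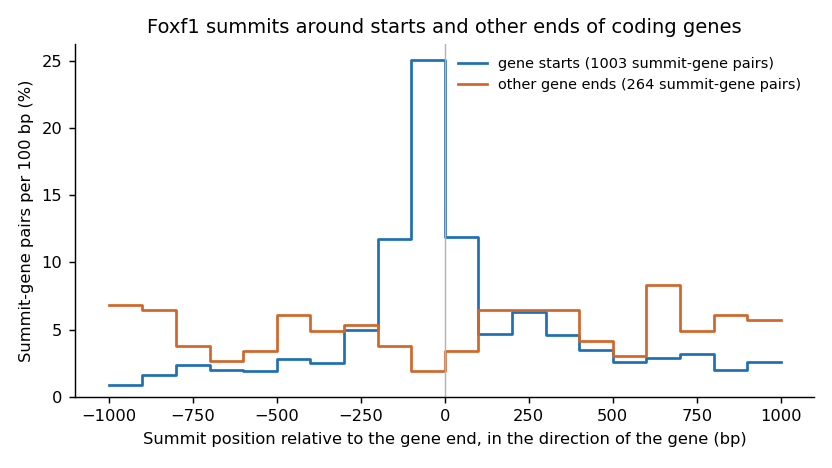
Distance of Foxf1 summits from the start (blue, 1003 summit and gene pairs) or the other end (orange, 264 pairs) of coding genes of known strand, in bins of 100 bp, as a percentage of the pairs; negative values lie before that end in the direction of the gene. The start curve peaks at 25.0% in the 100 bp before the start, while the other-end curve has no such peak.

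The summits crowded just upstream of the starts and not at the other ends. Over 1003 pairs of a summit and a start within 1 kb, the median position was 26 bp upstream (quartiles 135 bp upstream to 258.5 bp downstream). In 370 pairs (36.9%) the summit lay within 100 bp of the start and in 535 (53.3%) within 200 bp. The 200 bp upstream alone held 369 pairs (36.8%). Over the 264 pairs at other ends, 5.30% lay within 100 bp and 15.5% within 200 bp, with a median of 115.5 bp beyond the end. Sites at starts and at other ends had like fold enrichments, with medians of 7.64 and 7.89, and control levels of 3.65 and 2.98.

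Promoter windows with a Foxf1 summit were CpG-rich. A member summit lay inside 553 of 21045 windows (2.63%), belonging to 528 genes and 517 members. These windows held a median of 25 CpG dinucleotides (quartiles 19 to 32), against 13 over all windows. With 16 or more CpG taken as CpG-rich, 461 of the 553 (83.4%) were so, against 45.2% of all windows. Of the 6676 windows with 0 to 5 CpG, 4 held a summit. The share was 5.45% (4.66 to 6.32) for windows with 31 or more CpG, as the plot of promoter windows by CpG number shows.

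**Figure D2:**
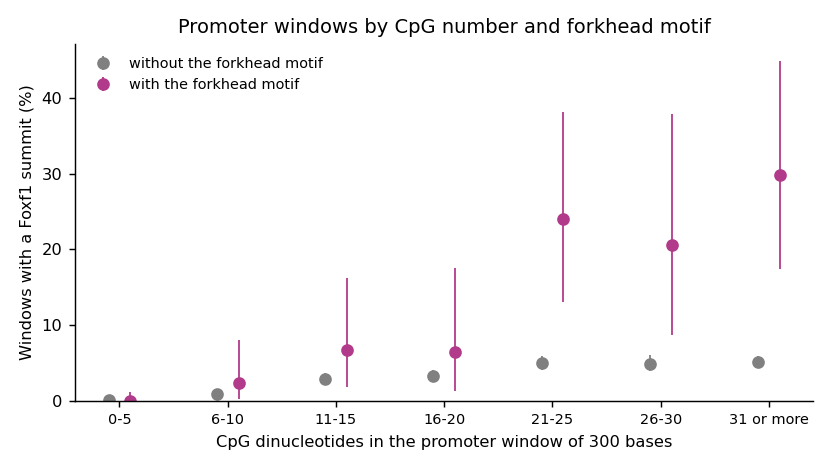
Percentage of promoter windows of 300 bases that held a Foxf1 summit, by the number of CpG dinucleotides in the window, for windows with (purple) and without (grey) the letters TGTTTAC on either strand; bars are exact 95% intervals. From 21 CpG upward 20.6% to 29.8% of windows with the motif held a summit, against 4.91% to 5.06% of those without.

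Among CpG-rich windows, those with the forkhead letters held a summit more often. TGTTTAC, on either strand, was present in 3.03% of all windows and in 42 of the 553 with a summit (7.59%, 5.53 to 10.1). Among CpG-rich windows the shares were 1.87% of all and 7.81% of those with a summit. Read the other way, 36 of 178 CpG-rich windows with TGTTTAC held a summit (20.2%, 14.6 to 26.9), against 425 of 9339 without it (4.55%, 4.14 to 4.99), a difference of 15.7 percentage points (10.0 to 22.3). Windows of 1 gene can overlap, and counted by gene the shares were 34 of 170 (20%) and 409 of 8211 (4.98%). In CpG-poor windows 6 of 460 with the motif (1.30%, 0.480 to 2.82) and 0.777% of those without it held a summit. Neither CpG content nor the motif was used to choose the peaks. The control level at members was higher than at other Foxf1 peaks, as given above, and its part in the CpG pattern was not tested.

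Position within the peak set TGTTTAC apart from other promoter elements. In the 40 peaks with TGTTTAC in the window, the nearest match lay a median of 12 bp from the summit, 26 within 25 bp and 29 (72.5%) within 50 bp. The same distance had a median of 75 bp for the ETS element CCGGAAGT (48 peaks), 77 bp for the CCAAT box CCAAT (159 peaks) and 63.5 bp for the E-box CACGTG (42 peaks), of which 22.9%, 27.0% and 35.7% lay within 50 bp. The related forkhead letters TGTTTAT were rarer, in 3.94% of all windows and 2.35% of those with a summit, and lay a median of 20.5 bp from the summit in 12 peaks. In CpG-rich windows 10 of 130 with TGTTTAT held a summit (7.69%) against 4.80% without, a difference of 2.89 points whose interval (-1.08 to 8.90) includes 0. Peaks with TGTTTAC had a median fold of 8.33 and the 477 promoter peaks without it 7.91, a gap that is small beside the spread of the members' fold. The pair Hbq1a and Hbq1b, alpha-globin-like genes that are near-identical copies, is among the matches, and both are uncertain for that reason.

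Of the other promoter elements none was more frequent than in CpG-rich windows at large beyond counting error. CCAAT and, narrowly, the GC box were less frequent. The GC box GGGCGG was in 69.1% of windows with a summit against 46.7% of all, but among CpG-rich windows the shares were 74.4% (70.2 to 78.3) and 78.4%. CCGGAAGT was in 9.54% of CpG-rich windows with a summit and 8.82% of all CpG-rich windows, and the YY1 element in 1.95% and 1.68%. CCAAT was in 28.4% (24.3 to 32.8) and 35.3% (34.4 to 36.3), CACGTG in 9.11% and 11.5%, the CRE TGACGTCA in 2.60% and 3.67%, the NRF1 element in 1.95% and 2.57%, and the ZBTB33 element in 1.30% and 1.37%. All were searched on both strands, and the CACGTG, TGACGTCA, NRF1 and ZBTB33 elements read the same on both strands. Of the 10 elements, TGTTTAC was the one whose share among CpG-rich windows with a summit exceeded that of all CpG-rich windows by the widest ratio.

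Housekeeping and developmental genes were then compared with lists made from gene symbols: 14 housekeeping lists (749 genes), 14 developmental lists (393 genes), 3 other lists and 3 lists of tissue-restricted families. At either end a member was found for 77 housekeeping genes (10.3%, 8.20 to 12.7) and 35 developmental genes (8.91%, 6.28 to 12.2), against 6.99% of all coding genes. The interval of the difference of 1.37 points (-2.50 to 4.93) includes 0, and its size and sign moved with the limits: 3.58 points (0.354 to 6.50) within 0.5 kb, -1.32 points within 2 kb and -0.404 points with a stricter q-value limit. Tissue-restricted families were nearly devoid of members, with 3 of 1568 genes (0.191%, 0.0395 to 0.558). These families also have few CpG-rich promoters (3 of 1348 genes of known strand).

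At starts and away from gene ends the classes differed in opposite directions, in comparisons added after the data were seen. Within 1 kb of the start, members were found at 51 of 609 housekeeping genes of known strand (8.37%) and 11 of 278 developmental genes (3.96%), beside the 5.69% of all genes, a difference of 4.42 points (0.759 to 7.59). This leaves out genes of unknown strand, which are 18 of the 77 housekeeping and 15 of the 35 developmental genes with a member. Among all listed genes of unknown strand, 12.9% of 140 housekeeping and 13.0% of 115 developmental genes had a member at either end. A further 8 housekeeping and 9 developmental genes had a member at the other end only. Other Foxf1 peaks, more than 1 kb from every gene end and either inside the gene or within 50 kb of it, were found for 31.7% of all coding genes. They were found for 271 housekeeping genes (36.2%) and 198 developmental genes (50.4%), a difference of -14.2 points (-20.3 to -8.02). Neighbouring genes, such as those of the Hox clusters, can share such a peak, so the genes are not independent and the interval may be too narrow. Developmental genes had the shorter median span, 7.41 kb against 11.2 kb. CpG content also differed between the classes: 79.6% of housekeeping genes and 58.3% of developmental genes of known strand had a CpG-rich window. Among genes with such a window, members at either end were found at 9.69% of housekeeping and 6.79% of developmental genes, a difference of 2.90 points (-2.71 to 7.39). The share was 10.5% of all genes with such a window. As these shares count either end, they do not compare with the 4.42 points at starts.

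**Figure D3:**
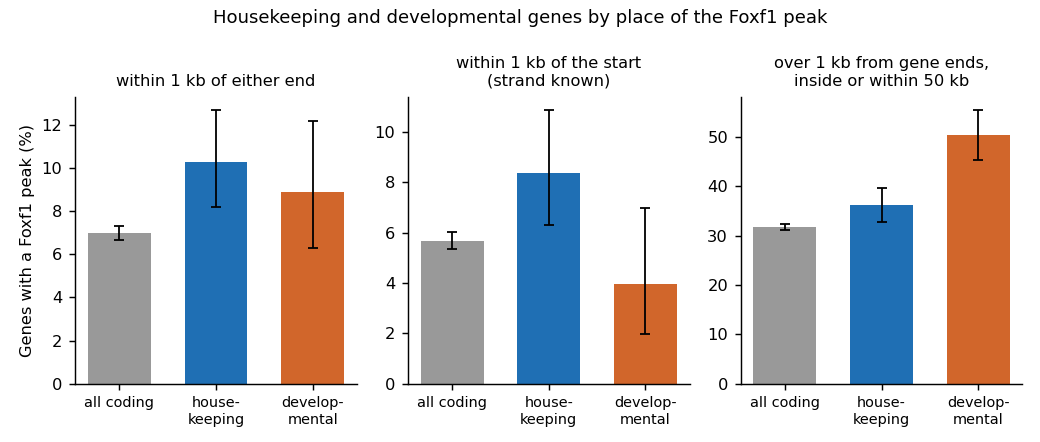
Percentage of all coding genes (grey), housekeeping genes (blue) and developmental genes (orange) with a Foxf1 peak within 1 kb of either end, within 1 kb of the start, or more than 1 kb from every gene end but inside the gene or within 50 kb; each panel has its own scale and bars are exact 95% intervals. Housekeeping genes stand at 8.37% and developmental genes at 3.96% in the middle panel, and at 36.2% and 50.4% in the right panel.

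Ribosomal protein, Mediator and RNA polymerase genes held many of the housekeeping members, whereas translation initiation factors had 1 of 55 (1.82%). Cytosolic ribosomal protein genes had a member in 14 of 79 cases (17.7%, 10.0 to 27.9), led by Rpl22 (fold 17.6, at its other end), Rpl13a (14.3), Rps3a1 (12.2) and Rps14 (10.3). Mitochondrial ribosomal protein genes had 8 of 78 (10.3%, 4.53 to 19.2), among them Mrps16 (13.3), Mrpl23 (12.7), Mrpl39 (9.74) and Mrps33 (9.36). Mediator, the complex between transcription factors and RNA polymerase II, had the highest share of the housekeeping lists, 6 of 30 (20%, 7.71 to 38.6), with Med4 (14.6), Med11 (12.5), Med15 (7.71) and Med23 (7.26). RNA polymerase subunit genes had 4 of 28 (14.3%, 4.03 to 32.7): Polr2c (8.95), Polr2j (8.50), Polr3b (6.27) and Polr3a (6.24). Of these examples Rpl22 had its summit at the other end, strand was unknown for Rps14, Med23 and Polr3a, and all others had the summit nearest to the start.

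Energy, splicing, cell cycle and ubiquitin lists also stood above the 6.99% of all genes in their point values, with intervals that include it, as do those of the mitochondrial ribosomal and RNA polymerase lists. Genes of the respiratory chain and ATP synthase had 11 of 97 (11.3%, 5.80 to 19.4), led by Atp5g2 (13.2), a subunit of the ATP synthase c-ring, and by the complex I genes Ndufa6 (9.12), Ndufa13 (8.38, other end) and Ndufb10 (7.78). Splicing factors had 7 of 63 (11.1%), led by Lsm11 (13.0), in fact a subunit of the U7 particle of histone mRNA processing, Snrpd1 (10.2), Prpf18 (10.2) and Prpf40b (8.14, other end). Aminoacyl-tRNA synthetases had 4 of 37 (10.8%): Aars (7.60, other end), Mars2 (7.40, other end), Sars2 (6.71) and Rars (5.57). The cyclin and mitotic kinase list had 8 of 60 (13.3%), and its leading genes Cdc73 (16.5), a subunit of the PAF1 elongation complex, and Cdk9 (15.7), the kinase of the elongation factor P-TEFb, act in transcription and carry cell cycle names only. Cyclin genes proper in that list were Ccne2 (9.93) and Ccnd3 (9.89). Ubiquitin-conjugating enzymes had 5 of 37 (13.5%), led by Ube2e3 (17.3), with Ube2cbp (7.53), Ube2l6 (6.95) and Ube2ql1 (6.42).

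The remaining housekeeping lists lay under the share of all genes. Proteasome genes had 3 of 48 (6.25%): Psmd6 (11.8), Psmc6 (7.55) and Psme3 (6.89, other end). Chaperones had 4 of 73 (5.48%), namely Dnajc11 (23.4), Cct7 (8.65), Dnajc1 (7.40, other end) and Dnajc7 (7.09). Translation initiation factors had 1 of 55 (Eif3g, 8.81), DNA replication factors 1 of 40 (Gins4, 27.5) and nuclear pore proteins 1 of 26 (Tpr, 8.15). The housekeeping lists therefore ranged from 1.82% to 20%, and their intervals overlap widely at these list sizes. For 8 of the 77 housekeeping genes with a member another coding gene lay nearer to the summit. The Aars and Ndufa13 summits, for example, lie in the promoter windows of their neighbours Exosc6 and Yjefn3. The same held for 2 of the 35 developmental genes.

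**Figure D4:**
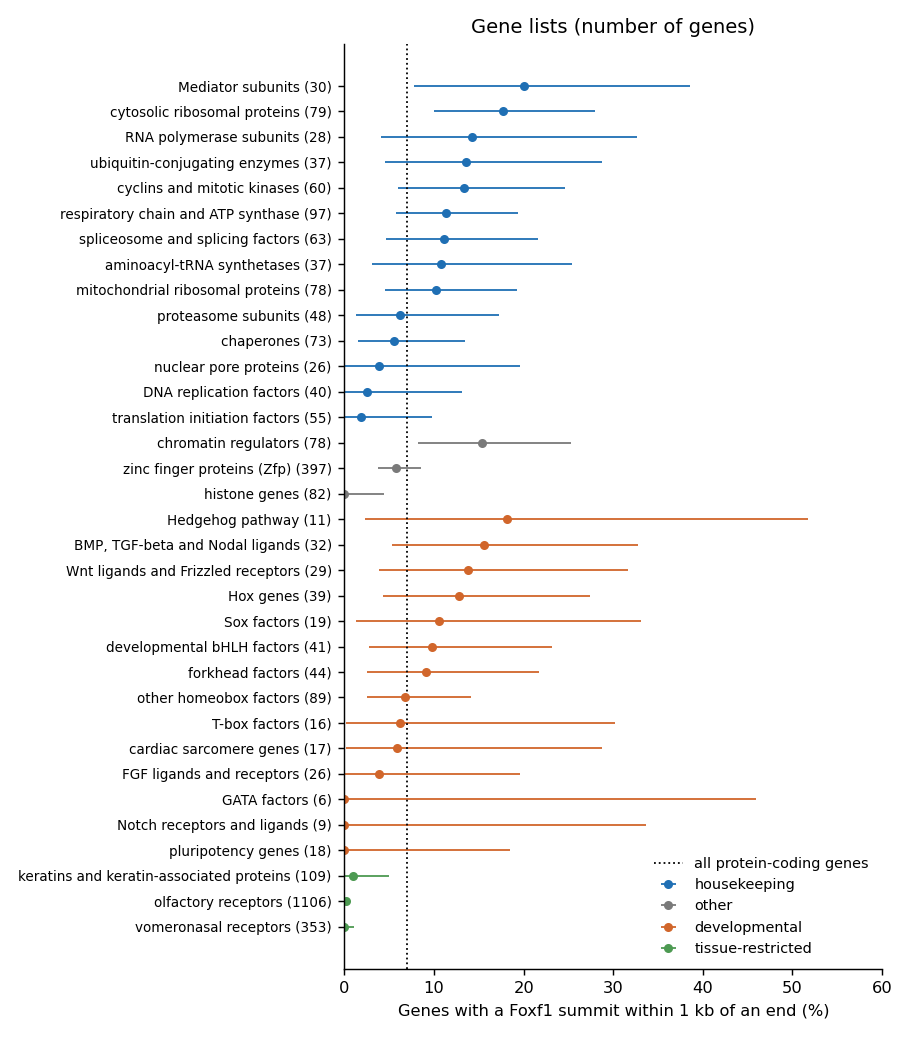
Percentage of the genes of each list with a Foxf1 summit within 1 kb of an end, with exact 95% intervals and the number of genes in parentheses; the dotted line marks all protein-coding genes (6.99%). Mediator (20%) and cytosolic ribosomal protein genes (17.7%) lead the housekeeping lists, and olfactory and vomeronasal receptors lie near 0.

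Among other nuclear genes, chromatin regulators had a member in 12 of 78 cases (15.4%, 8.21 to 25.3). The strongest were Chd9, a chromodomain remodeller (12.1), Kmt2b, a histone H3 lysine methyltransferase (11.3), the demethylase Kdm3b (10.7) and the bromodomain protein Brd7 (10.0). The Kmt2b summit lay nearer to an end of Zbtb32 (104 bp) than to that of Kmt2b (520 bp), and strand was unknown for Kmt2b and Kdm3b. Zinc finger genes named Zfp had 23 of 397 (5.79%), led by Zfp975 (28.3), Zfp398 and Zfp786 with 1 shared peak (17.6) and Zfp976 (14.0). Of 82 histone genes none had a member (0 to 4.40%). Histone genes include near-identical copies, so this count is uncertain.

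Developmental members came from many families, with a few genes in each. Hox genes, which set position along the body axis, had 5 of 39 (12.8%): Hoxb5 (12.0), Hoxa5 and Hoxa6 through a single peak at chr6:52204385-52204882 (11.5), Hoxa10 (6.50) and Hoxc10 (6.42). Other homeobox genes had 6 of 89 (6.74%), led by Meis1, a Hox cofactor (14.2, summit 126 bp upstream of its start), Pou2f1 (10.6), Six6 (10.1, other end) and Irx3 (7.62, other end). Helix-loop-helix factors had 4 of 41 (9.76%): Tcf21, a factor of lung, kidney and heart mesenchyme (11.1), Ascl4 (10.2), Lyl1 (6.22) and Hes1 (5.76). The sites of Tcf21, Ascl4 and Lyl1 were at the other end. Forkhead genes themselves had 4 of 44 (9.09%): Foxo6 (10.2), Foxd2 (9.15), Foxp2 (7.26) and Foxq1 (6.66). Sox genes had 2 of 19, Sox12 (10.7) and Sox6 (7.97), T-box genes 1 of 16, Tbx2 (8.92), and GATA genes 0 of 6. Strand was unknown for Hoxb5, Hoxc10, Hes1, Foxo6, Foxp2, Foxq1 and Tbx2.

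Among signalling genes, the BMP, Wnt and Hedgehog lists stood above the 6.99% of all genes in their point values. The FGF and Notch lists stood below it, and the intervals of all these lists include it. The list of BMP, TGF-beta and Nodal ligands had 5 of 32 (15.6%, 5.28 to 32.8), with Gdf15 (23.7, other end) far above Gdf1 (9.54, other end), Tgfb3 (7.47) and Bmp7 (6.70). Its remaining gene with a member, Bmp1 (5.92), encodes a protease and carries a ligand name only. Strand was unknown for Tgfb3, Bmp7 and Bmp1, and of the 21 genes of known strand in this list 0 had a member at the start. Wnt ligands and Frizzled receptors had 4 of 29 (13.8%, 3.89 to 31.7): Wnt1 (10.6), Fzd8 (8.97), Wnt10a (8.62) and Wnt7a (7.55). Strand was unknown for Fzd8 and Wnt10a. In the Hedgehog pathway, 2 of 11 genes had a member, the transcription factor Gli2 (7.62) and its inhibitor Sufu (5.89). The FGF list had 1 of 26, Fgf15 (6.70, strand unknown), the Notch list 0 of 9 and the cardiac sarcomere list 1 of 17, Myl2 (7.84, other end). None of 18 pluripotency genes had a member, although 12 of them (66.7%) had another Foxf1 peak inside or within 50 kb, the second highest such share of all lists after the Hox genes (27 of 39, 69.2%). In this measure 1 peak counts for every gene within 50 kb, so clustered genes such as the Hox genes are not separate cases. Of the tissue-restricted families, 2 of 1106 olfactory receptor genes, Olfr52 (9.74) and Olfr368 (7.83), 0 of 353 vomeronasal receptor genes and 1 of 109 keratin genes, Krt8 (6.88), an early epithelial keratin, had a member.

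To compare single with divergent gene ends, ends of coding genes within 1 kb of each other were joined into 38626 loci, of which 3.64% held a member. Loci with the ends of 2 or more genes held one more often than loci with 1 gene, 181 of 3074 (5.89%) against 1226 of 35552 (3.45%), a difference of 2.44 points (1.61 to 3.35). Their windows were longer, with medians of 2244 and 2001 bp, and per Mb of window 25.0 and 17.0 loci held a member. These 2 groups were not matched by role, as 13681 of the loci with 1 gene are single other ends. By role, a single start held a member in 785 of 13441 loci (5.84%, 5.45 to 6.25) and a single other end in 164 of 13681 (1.20%), a difference of 4.64 points (4.20 to 5.09).

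**Figure D5:**
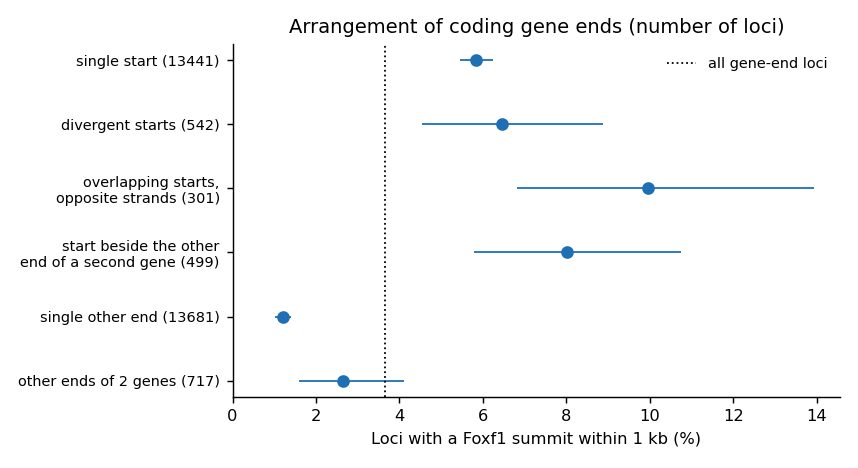
Percentage of gene-end loci with a Foxf1 summit within 1 kb, by arrangement of the coding gene ends, with exact 95% intervals and the number of loci in parentheses; the dotted line marks all loci (3.64%). Divergent starts (6.46%) lie within the counting error of single starts (5.84%), against 1.20% for single other ends.

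Divergent starts were close to single starts. Where the genes point away from each other, 35 of 542 loci held a member (6.46%, 4.54 to 8.87), a difference of 0.617 points from single starts (-1.34 to 3.06). Per window length the numbers were 29.8 and 29.2 loci with a member per Mb. With the summit required to lie within 200 bp of a start the shares were 3.69% and 3.36%. A single coding start beside the divergent start of a non-coding gene held a member in 35 of 595 loci (5.88%), against 5.84% without one. An interval that includes 0 does not show that the arrangements are alike.

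Starts whose genes overlap on opposite strands held members more often, in 30 of 301 loci (9.97%, 6.83 to 13.9). The difference from single starts was 4.13 points (0.959 to 8.10), and per Mb of window 43.0 loci held a member. The 2 opposite-strand arrangements together reached 65 of 843 (7.71%), a difference of 1.87 points (0.112 to 3.92). A start beside the other end of a second gene held a member in 40 of 499 loci (8.02%, 5.79 to 10.8), and other ends of 2 genes in 19 of 717 (2.65%). Members at divergent and single starts had like fold, with medians of 7.52 and 7.62, and like control levels of 3.66 and 3.65.

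At divergent pairs most summits lay outside the gap between the starts, and most of the window searched lies outside it too. At divergent pairs with a member the median gap between the starts was 122 bp, against 98.5 bp for all divergent pairs, and 7 of 35 summits (20%) lay in the gap, out of a window of 2099.5 bp at the median. Over all start pairs, the first by fold were Pfdn2 and Nit1, an amidase gene (61.3), Exd1 and the calcineurin-like Chp1 (30.8), and Zfp398 and Zfp786 (17.6). Next were Wrap53, a telomerase RNA-binding protein, and Trp53, the tumour suppressor p53 (14.1, chr11:69579264-69579961), and Exosc8, a subunit of the RNA exosome, with Alg5, an enzyme of N-glycosylation (13.5, chr3:54735144-54735683). Of these 5 peaks the summit lay between the starts at Exosc8 and Alg5 only. The summit at Pfdn2 and Nit1 lay beyond the Pfdn2 start, inside Nit1 and over 1 kb from the Nit1 start. Starts here are the outermost ends of the genes, and inner alternative starts were not counted: the Wrap53 summit lies inside a RefSeq promoter window though 798 bp from that end. At Rxrb, whose sequence is given above, the peak belongs to its divergent pair with the zinc transporter gene Slc39a7.

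Of 51 housekeeping genes with a member at the start, 6 had that start in an opposite-strand pair, beside 121 of 983 over all genes. Of housekeeping genes of known strand, 143 (23.5%) have their start in an opposite-strand pair, against 9.76% of all genes, and 6 of these had a member at the start (4.20%, 1.56 to 8.91). Of 422 housekeeping genes with a single start, 39 had one (9.24%, 6.65 to 12.4), and the 2 intervals overlap. Over all genes the order was the other way, 121 of 1686 in pairs (7.18%) and 5.84% at single starts. Developmental genes rarely shared a start region: 4 lie in such pairs, none with a member, and 10 of 260 single starts had one (3.85%, 1.86 to 6.96).

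The share of genes with a member differed between chromosomes. It was 12.9% on chromosome 8, 9.66% on 15, 9.20% on 11 and 8.97% on 6, between 4.22% and 8.79% on the other autosomes, and 1.04% on X (10 of 966 genes). The median control level of the members was 4.87 on chromosomes 6 and 8, 1.83 on X and 3.16 to 3.89 elsewhere. Control level and share of genes were thus both high on chromosome 8 and both low on X, and the part of the control level in the share was not tested. Without chromosomes 6 and 8 the share of genes with a member was 6.56%, and the housekeeping share exceeded the developmental one by 2.40 points in place of 1.37.

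The share at starts did not follow the fold. With the members cut by fold into 4 groups of equal size, from the lowest to the highest, the share at starts was 85.8%, 80.6%, 78.4% and 84.3% of members of known strand. By q-value it was 86.1% (82.7 to 89.0) of members at 20 or more on the −log10 scale and 79.4% (76.0 to 82.5) of those under it. The share with the summit in a promoter window was 32.7%, 31.6%, 37.9% and 43.7%. Among those, TGTTTAC was present in 4.31%, 5.36%, 10.4% and 9.68%. Of 34 housekeeping windows with a summit 1 held TGTTTAC (Ccnd3), and of 6 developmental windows 1 (Sox12). With or without a summit, 17 of 711 housekeeping windows (2.39%) and 5 of 332 developmental windows (1.51%) held it. The counts with a summit are too small to set against these shares.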

How the data were processed

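The 5 samples of E14 cells, in 4 groups, are anti-HA chromatin immunoprecipitations and their inputs, and 2 deposited peak lists were analysed, 1 for Foxf1 (replicate 1; whether on pooled libraries is not stated) and 1 for Hand1. The submitters' processing notes name the build mm10 and the tools Trim Galore 0.6.6, Bowtie2 2.3.4.3, SAMtools 1.9, deepTools 3.5.0 and MACS2 2.2.7.1, without their settings. In the deposited lists the authors give each peak's interval and summit, the fold enrichment (a linear ratio over background), its significance as −log10 of the p-value and of the q-value, and a score that is 10 times the −log10 p-value without its decimals. The Foxf1 list starts at a −log10 q-value of 10.0.

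Depth is not given in the lists. Fragments k and control level λ at each summit were solved from the fold, taken as (k + 1)/(λ + 1), and the p-value, taken as the upper Poisson tail beyond k at mean λ. The higher λ was kept, and a solution was found for 5691 of 5703 peaks, all members included. Another 65 Foxf1 lines lie outside chromosomes 1 to 19 and X. Gene names, ends and promoter windows (250 bases before to 50 after a start) came from RefSeq GRCm38.p6. A gene's strand was read from its promoter window, which was found for 17274 genes and missing for 4357, and none was used for chromosome 18, with 40 members. A summit was given to the nearest end, and each summit line was 1 peak. Coordinates are 1-based.

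Shares have exact (Clopper-Pearson) 95% intervals, and differences of shares an interval combined from these by Newcombe's method. Both cover counting error only, and genes that share a peak are not independent. Gene lists are symbol patterns, so a few names fall outside their list's function. The members and lists were chosen with earlier results of these data known. Named genes are those of the 10 members of highest fold, up to 4 per list by fold, the 5 start pairs of highest fold, the 2 peaks on each side of the 1 kb limit, and listed genes with several members, of which 1 is not reported here. Bmp1 was named in addition, for its function. Genes shown for their sequence were chosen after their values were seen. Scripts ran in Python 3.11.15 with pandas 2.3.3, NumPy 2.4.6, SciPy 1.17.1 and matplotlib 3.10.9, and were tested on simulated data. Alternatives were the distance, the q-value limit, summits per interval, the Hand1 overlap, the control level, the pairing distance, predicted genes and single ends.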

Additional observations from a re-analysis of the deposited data

How the results depend on the processing

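Of 46 recomputed values, 34 kept their direction and lay inside the counting interval of the reported value, which can be wide, or near it for the number of members. Another 10 moved and 2 reversed. With a stricter limit, 20 on the −log10 q-value scale, there were 596 members, at 3.05% of genes, with 86.1% at starts, a close-pair difference of 1.36 points, and a housekeeping minus developmental difference of -0.404 points in place of 1.37. With a limit of 0.5 kb the share of genes was 5.13%, the share at starts 87.0% and the housekeeping minus developmental difference 3.58 points (0.354 to 6.50), against 2.57 for single ends and 2.40 without chromosomes 6 and 8. With 2 kb the share of genes was 9.46%, the share at starts 76.3%, the close-pair difference was 3.54 points, and the housekeeping minus developmental difference was -1.32 points. The distance itself sets how many ends are reached, and the cause of the other changes was not tested. Without chromosomes 6 and 8, chosen after seeing the data, 6.56% of genes had a member. The comparison of housekeeping with developmental genes at either end therefore has no stable direction. Gene starts only, also added after seeing the data, gave 4.42 points.

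No paired analysis was possible because each factor has 1 peak list, which also leaves no replicate to omit. The weakest members rest on 18 fragments, and weaker sites are not in the list. Strand is missing for part of the genes, and peaks outside the promoter windows were not read for motifs.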
